A study of Mus musculus with 4 samples.

Results

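Described here are genes of the DNA methylation machinery in the mouse mPFC, the medial part of the prefrontal cortex. They comprise 2 genes that write the mark (Dnmt1 and Dnmt3a), 4 linked to its removal (Tet1, Tet2, Tet3 and Gadd45b) and 3 of the family that reads it (Mbd1, Mbd2 and Mbd3). They were found by symbol in a table of 17778 genes, and all 9 were present. Messenger RNA was sequenced from male C57BL/6 mice (C57BL/6J in the methods of the study), an inbred laboratory strain, in 2 groups of 2 libraries each. The mice were juvenile when the experiment began. They were older when tissue was taken, after a period of adaptation, weeks of stress or control housing, and the tests. The CUMS mice had lived under chronic unpredictable mild stress (CUMS), a schedule of changing mild stressors with social isolation, and had then met the depression criterion in tests of sucrose preference, Y-maze and forced swimming. The control mice were of the same strain and were not stressed. Stressed mice that stayed outside the criterion were not studied, so that exposure to stress and the depression-like state cannot be told apart. Tissue of both hemispheres was taken the day after the tests, and RNA was prepared mouse by mouse, although the labels do not say whether a library is 1 mouse. The table holds 1 mean per gene and group and no value for a single library, and therefore the spread between mice is unknown and no p-value is given.

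DNA methylation in mammals is the addition of a methyl group to cytosine, mostly where a guanine follows (CpG). DNMT1 copies the mark onto the new strand after replication, and DNMT3A sets it at new sites, also in neurons, which do not divide. TET enzymes oxidize 5-methylcytosine to 5-hydroxymethylcytosine, which is abundant in neurons, and base excision repair can then restore the plain cytosine. GADD45B is a small stress protein whose gene is switched on by neuronal activity and which has been linked to demethylation. MBD proteins carry a methyl-CpG binding domain, and MBD2 and MBD3 are alternative subunits of the NuRD complex, which remodels chromatin and removes acetyl groups from histones.

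The values are RPKM, read numbers scaled by library size and by gene length, so that the levels of different genes can be compared. From the low values of the table, the depth was estimated as 7347539 fragments in each control library and 7401925 in each CUMS library. This is well below the number of clean reads that the study lists per library, the reason is not known, and with more fragments the intervals would be narrower. A counting interval below is the exact 95% interval that such fragment numbers give, and it covers counting error only. Genes are called expressed when 1 of the group means reached 0.5 RPKM, which held for 14257 genes and for all 9 described here. The median log2 ratio (CUMS over control) of expressed genes was -0.02, and their median absolute log2 ratio was 0.13.

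Most of these genes were lower in CUMS by small amounts. The CUMS mean was the lower in 8 of 9 genes, whereas 53.2% of all expressed genes were lower, and Mbd3, at -0.01, turns to the other side of 0 when the CUMS values are rescaled to a median ratio of 0. The median log2 ratio of the 9 genes was -0.09. A fold of 1.5 is the fold threshold of the study, which also required a probability that was not used here. Only Tet1 passed this fold in either direction, against 7.13% of expressed genes. For the direction lower in CUMS the share of expressed genes was 4.39%, and for the direction higher, in which 0 of the 9 genes passed, it was 2.74%. Tet1 is not among the genes that the study lists as changed. Dnmt3a, Tet1, Tet3 and Mbd1 had a counting interval below 0, that is 4 of 9 genes against 16.7% of expressed genes, and 0 of the 9 had an interval above 0, against 12.5%. Dnmt1, Tet2, Gadd45b, Mbd2 and Mbd3 had intervals that held 0. With 2 times the fragments per library the interval of Dnmt1 (-0.16 to -0.01) lay below 0 as well, which gives 5 of 9 genes. Whether an interval holds 0 depends on the number of fragments. Among expressed genes with more than 200 and up to 1000 fragments over all libraries, 14.3% had an interval below 0, and among those with more than 1000 and up to 4000 it was 20.7%. Above 4000 fragments, where Dnmt3a stands, 26.6% had an interval below 0 and 32.5% had one above 0.

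**Figure D1:**
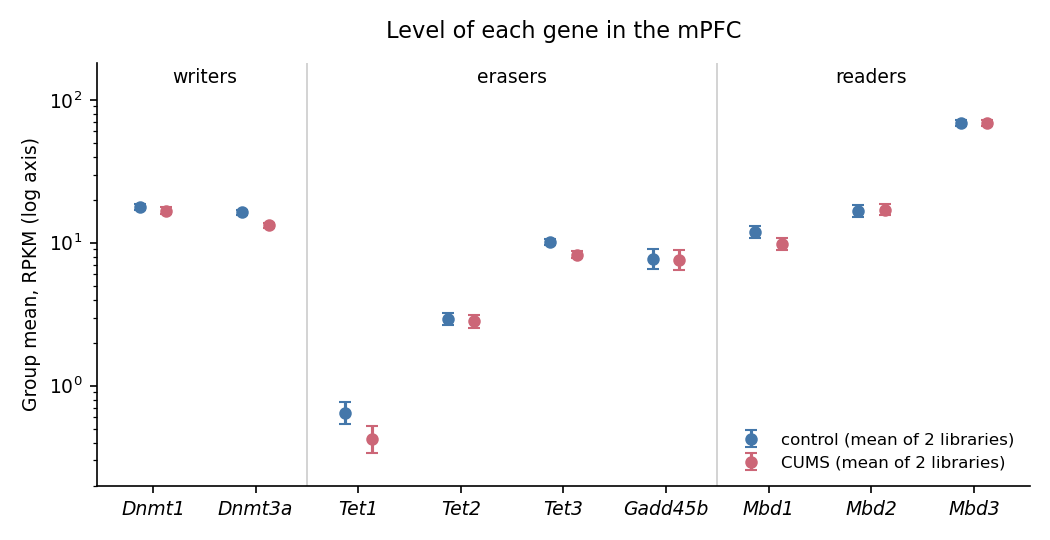
Group means of the 9 genes in RPKM on a log axis, control in blue and CUMS in red, each point being the deposited mean of 2 libraries and each bar its exact Poisson interval for counting error. Mbd3 stands at 69.3 and 68.8 RPKM, far above Tet1 at 0.645 and 0.425 RPKM.

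**Figure D2:**
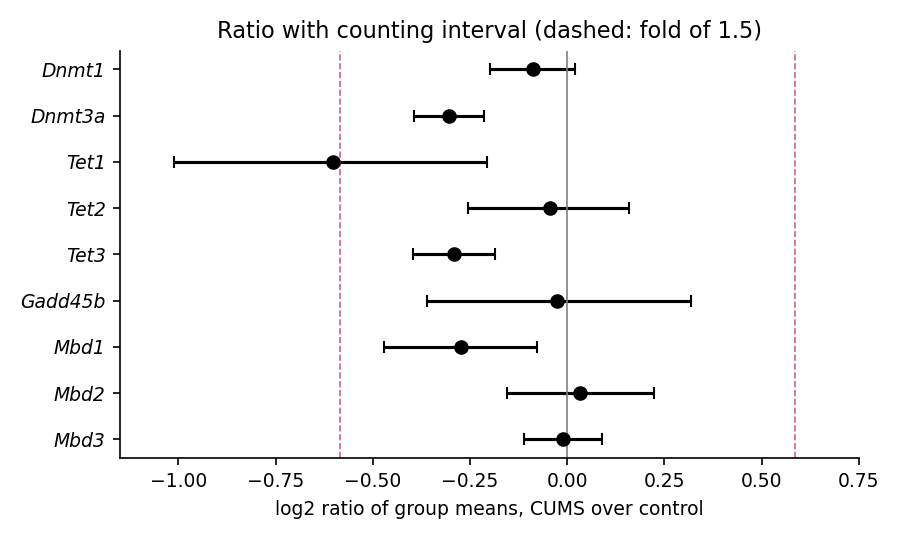
Ratio of the group means on the log2 scale, CUMS over control, for each gene (points) with its exact 95% counting interval (bars) and a fold of 1.5 as dashed lines. The intervals of Dnmt3a, Tet1, Tet3 and Mbd1 lie below 0, and the point of Tet1 at -0.60 is the only one past a dashed line.

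The levels covered a wide range. Mbd3 was the highest of the 9 genes, with a control mean above that of 92.0% of expressed genes. Dnmt1 (17.8 RPKM), Mbd2 (16.6 RPKM) and Dnmt3a (16.3 RPKM) followed in control, and neighbours in this order had overlapping intervals. Below them came Mbd1 (11.9 RPKM), Tet3 (10.1 RPKM), Gadd45b (7.72 RPKM), Tet2 (2.92 RPKM) and Tet1 (0.645 RPKM), each apart from its neighbour by its interval. In CUMS the order was the same except that Mbd2 (17.0 RPKM) stood above Dnmt1 (16.7 RPKM), and the neighbours that overlapped were no longer the same. Dnmt3a at 13.2 RPKM (interval 12.6 to 13.8) now lay below Dnmt1 (15.8 to 17.6), and Tet3 (7.82 to 8.71) overlapped with Gadd45b (6.43 to 8.94).

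Among the writers, Dnmt3a was lower in CUMS and Dnmt1 differed little. Dnmt3a (gene 13435, chr12:3801559-3914443 on GRCm38), the de novo methyltransferase, had a mean of 16.3 RPKM in control and 13.2 RPKM in CUMS. These means rest on 2244 and 1830 fragments. The log2 ratio was -0.30 (counting interval -0.39 to -0.22), a mean 19.0% lower, and 12.1% of expressed genes had a lower ratio. Dnmt1 (gene 13433, chr9:20907206-20959888), the maintenance methyltransferase, had 17.8 and 16.7 RPKM, or 1411 and 1337 fragments. Its log2 ratio was -0.09 (-0.20 to 0.02). Relative to Dnmt1, the level of Dnmt3a went from 0.917 to 0.789, a difference of log2 ratios of -0.22 (interval -0.36 to -0.08, from the fragment numbers by a normal approximation). A common scaling of a group cancels in this difference. Dnmt3b, the other de novo enzyme, was near absent at 0.29 and 0.18 RPKM (17 and 11 fragments), below the limit for expressed genes. In the annotation, 133 exonic bases of Dnmt3a overlap with Dnmt3aos on the opposite strand, and the use of strand in counting was not stated.

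The TET enzymes differed among each other in level and in ratio. Tet3 (gene 194388, chr6:83362373-83457208) was the main one, with 10.1 RPKM in control and 8.26 RPKM in CUMS (1620 and 1333 fragments). Its log2 ratio was -0.29 (-0.40 to -0.19), a mean 18.3% lower. Tet2 (gene 214133, chr3:133463677-133545136) had 2.92 and 2.83 RPKM (395 and 385 fragments), with a log2 ratio of -0.05 (-0.25 to 0.16), and 43 of its exonic bases overlap with Gm42567 on the opposite strand. Tet1 (gene 52463, chr10:62804570-62887469) was the lowest of all 9 genes, at 0.645 and 0.425 RPKM, and only 4.43% of expressed genes had a lower control mean. Behind it stood 133 fragments in control and 88 in CUMS. Its log2 ratio was -0.60 (-1.01 to -0.21), so that its fold of 1.52 was just past the threshold and folds on either side of the threshold lie within the interval. The value of Tet1 is therefore the least precise of the 9, although its length of 13986 bases gathers more fragments than a short gene at this level would.

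The TET genes summed to 13.7 RPKM in control and to 11.5 RPKM in CUMS, which gives a log2 ratio of -0.25. Tet3 made up 73.9% of this sum in control and 71.7% in CUMS, Tet2 21.4% and 24.6%, and Tet1 4.72% and 3.69%. The ratio of Tet3 lay below that of Tet2 by 0.25 on the log2 scale (difference -0.25, interval -0.47 to -0.02), and that of Tet1 lay below Tet2 as well (-0.56, interval -0.995 to -0.12). Tet1 and Tet3 could not be told apart (-0.31, interval -0.71 to 0.09).

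The listed start sites of the TET genes are shown for CpG, the dinucleotide on which the encoded enzymes act. That of Tet2 holds far more CpG than those of Tet1 and Tet3, which are nearly alike. The sequences are the 250 bases before an annotated start site of Tet1 (chr10:62887325-62887574, minus strand), Tet2 (chr3:133544391-133544640, minus strand) and Tet3 (chr6:83441679-83441928, minus strand) from RefSeq on GRCm38.p6, written 5′ to 3′ with CpG in capitals.
Tet1: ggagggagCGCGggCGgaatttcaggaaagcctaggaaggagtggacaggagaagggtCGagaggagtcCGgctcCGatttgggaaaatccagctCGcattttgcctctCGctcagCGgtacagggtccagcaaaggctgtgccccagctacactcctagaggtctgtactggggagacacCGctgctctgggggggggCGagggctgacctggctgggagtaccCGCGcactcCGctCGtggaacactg
Tet2: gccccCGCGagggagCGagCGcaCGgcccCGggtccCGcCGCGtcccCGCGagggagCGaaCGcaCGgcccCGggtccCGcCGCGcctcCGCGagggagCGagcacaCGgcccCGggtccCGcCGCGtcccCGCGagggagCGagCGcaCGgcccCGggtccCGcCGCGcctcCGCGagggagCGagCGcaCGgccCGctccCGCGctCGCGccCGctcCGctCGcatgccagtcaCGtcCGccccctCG
Tet3: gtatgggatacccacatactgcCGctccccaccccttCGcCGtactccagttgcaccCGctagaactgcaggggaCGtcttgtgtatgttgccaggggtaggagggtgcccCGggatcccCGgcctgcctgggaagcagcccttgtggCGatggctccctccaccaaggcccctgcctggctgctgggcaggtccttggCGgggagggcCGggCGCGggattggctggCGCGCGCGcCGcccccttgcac

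The window of Tet2 held 51 CpG and only 0.067% of the 32851 start-site windows in the table of promoters held as many. Tet3 held 17 CpG and Tet1 held 15, against a median of 6 over all windows. The most CpG-rich of these windows thus belonged to the TET gene whose ratio was nearest to 0, which is a description of 3 genes at the listed start sites only. The RefSeq spans of Tet1, Tet2 and Tet3 reach further upstream than these start sites, for Tet3 to position 83457208. CpG at other start sites of these genes was not counted. For 7 of the 9 genes a window was listed, namely all but Mbd1 and Mbd2. There were 11 windows in all because 3 start sites are listed for Dnmt1 and 3 for Dnmt3a. Of these, 10 windows held more CpG than the median. The windows of Dnmt3a held 38, 40 and 15 CpG, those of Dnmt1 held 26, 7 and 2, and that of Mbd3 held 14. The first and second windows of Dnmt3a overlap and share CpG. The table does not tell which start site the fragments came from, and no methylation was measured in these samples.

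**Figure D3:**
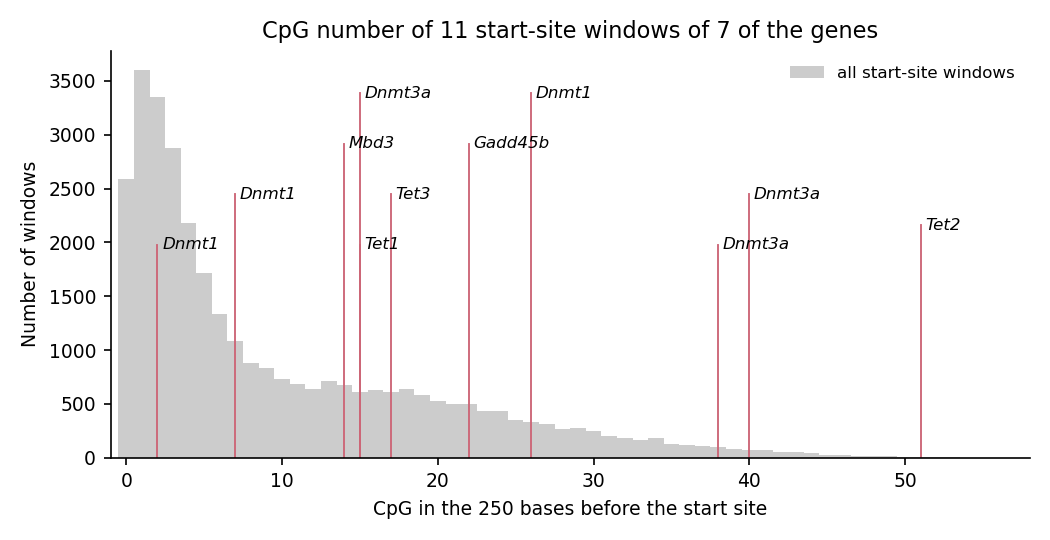
Number of CpG in the 250 bases before each annotated start site, as grey bars for all 32851 windows and red lines for the 11 windows of the 7 genes listed. Tet2 lies at the far right with 51 CpG, and 1 window of Dnmt1, with 2 CpG, is the only one below the median of 6.

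Gadd45b had nearly equal means in both groups. Gadd45b (gene 17873, chr10:80930091-80932204) had 7.72 RPKM in control and 7.59 RPKM in CUMS, or 148 and 147 fragments. The log2 ratio was -0.03 with a wide interval of -0.36 to 0.32. Immediate early genes are induced within minutes to hours of neuronal firing, and 13 of 13 listed ones had a lower mean in CUMS. Among all expressed genes 53.2% had a lower mean. Lower past a fold of 1.5 were 8 of the 13, against 4.39% of expressed genes. The median log2 ratio of the 13 genes was -0.72, and all 13 had a counting interval below 0, against 16.7% of expressed genes. Examples are Fos (46.4 and 22.3 RPKM, log2 ratio -1.06), a transcription factor, Arc (184 and 88.0 RPKM, -1.06), a synaptic protein, Dusp1 (35.1 and 21.3 RPKM, -0.72), a phosphatase of MAP kinases, and Nr4a2 (4.22 and 3.36 RPKM, -0.33), a nuclear receptor. The log2 ratio of Gadd45b lay above that of every gene in this list, by 0.30 for Nr4a2 (interval -0.15 to 0.75) up to 1.04 for Arc (0.71 to 1.37). For 12 of the 13 genes the interval of this difference lay above 0. The lower level of these immediate early genes was known before the list was drawn up, so that the 13 of 13 is no independent evidence. The same holds for the place of Gadd45b above them, including the 12 of the 13 differences. Outside the list, Bdnf (3.44 and 3.67 RPKM), a neurotrophin gene induced by activity, was not lower, with a log2 ratio of 0.09, and was chosen after its value was seen. Those past the fold were Fos, Fosb, Arc, Egr2, Npas4, Dusp1, Ier2 and Btg2.

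Within its own family Gadd45b was neither the highest nor the gene with the lowest ratio. Gadd45g had 20.8 and 20.6 RPKM with a log2 ratio of -0.01 (-0.24 to 0.21). Gadd45a, a target of p53, had 4.495 and 3.10 RPKM, on 81 and 56 fragments, with a log2 ratio of -0.54 (-1.06 to -0.03). For 0 of the 3 pairs of this family did the interval of the difference leave 0 outside, and that of Gadd45a less Gadd45b was -1.10 to 0.08. The start site of Gadd45b is shown for its E-box, a motif with the letters CACGTG, and for its 22 CpG, in capitals (chr10:80929841-80930090, plus strand, RefSeq on GRCm38.p6).
Gadd45b: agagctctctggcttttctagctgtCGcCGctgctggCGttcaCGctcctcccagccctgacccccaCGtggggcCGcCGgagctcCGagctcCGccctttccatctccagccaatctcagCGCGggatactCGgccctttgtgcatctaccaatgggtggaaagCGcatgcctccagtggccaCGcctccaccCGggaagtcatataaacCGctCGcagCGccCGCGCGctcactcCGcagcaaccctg

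A search for the E-box CACGTG and for the cAMP response element TGACGTCA, both of which read the same on either strand and neither of which contains the other, found an E-box in 2 of the 11 windows, those of Gadd45b and of the third start site of Dnmt3a. Over all windows 6.02% held an E-box. The cAMP response element was found in 0 of the 11 windows and in 1.55% of all windows.

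Among the readers, Mbd1 was lower in CUMS and Mbd2 and Mbd3 were close to equal. Mbd1 (gene 17190, chr18:74267605-74282737), which binds methylated CpG at promoters, had a mean of 11.9 RPKM in control and 9.85 RPKM in CUMS (467 and 389 fragments). Its log2 ratio was -0.27 (-0.47 to -0.08), a mean 17.3% lower. Mbd2 (gene 17191, chr18:70568225-70629134) had 16.6 and 17.0 RPKM (456 and 470 fragments) and was the only one of the 9 genes with a higher mean in CUMS. Its log2 ratio was 0.03 (-0.16 to 0.22). Mbd3 (gene 17192, chr10:80392539-80399531) had 69.3 and 68.8 RPKM (1617 and 1618 fragments), with a log2 ratio of -0.01 (-0.11 to 0.09), nearest to 0 among the 9. The ratio of Mbd1 lay below that of Mbd2 (difference -0.31, interval -0.58 to -0.04) and of Mbd3 (-0.26, interval -0.48 to -0.05).

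Of the within-family pairs, 1 among writers, 3 among TET genes, 3 among GADD45 genes and 3 among MBD genes were compared. The interval of the difference left 0 outside in 1, 2, 0 and 2 of them. These intervals cover counting error only and were not adjusted for the number of pairs. The share of such intervals among pairs of other genes was not computed, here or for Gadd45b and the immediate early genes. The counts therefore do not set these pairs apart from other pairs of genes.

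**Figure D4:**
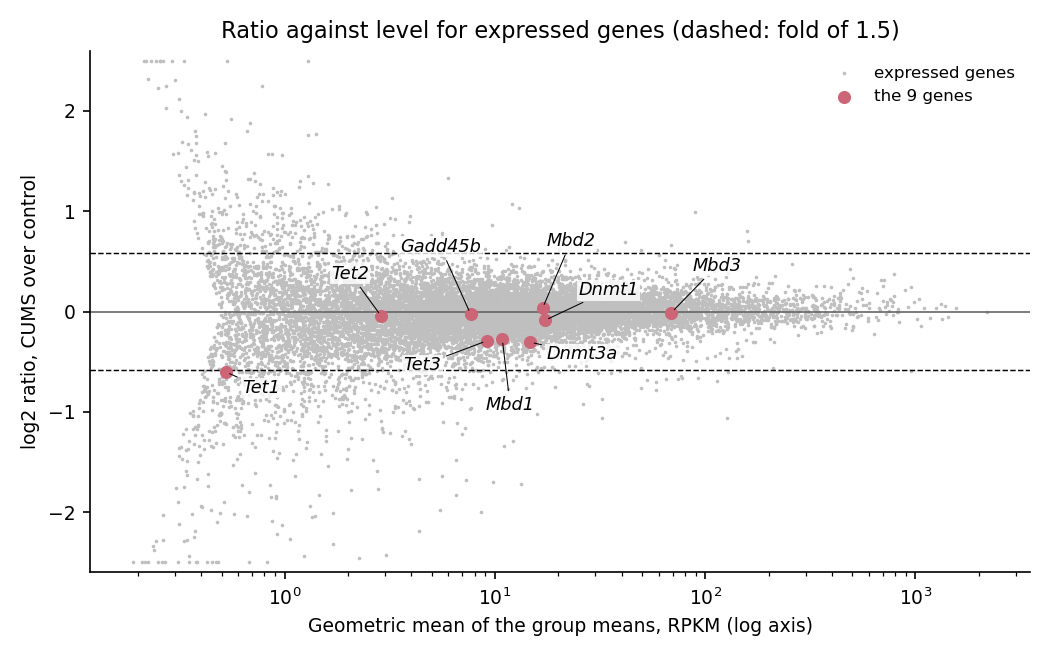
The log2 ratio of CUMS over control against the geometric mean of both group means in RPKM (log axis) for expressed genes, in grey, and the 9 genes, in red, with dashed lines at a fold of 1.5. Genes listed at 0.01 RPKM in a group are left out and ratios beyond 2.5 are drawn at 2.5, and the plot shows that Tet1 lies where grey points spread widely while Dnmt3a lies where they are narrow.

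Of the 9 genes, Dnmt3a, Tet1, Tet2 and Tet3 had gene lengths above 9000 bases, as had 328 of the expressed genes. Long genes as a class were slightly lower in CUMS, with a median log2 ratio of -0.07 above 9000 bases and 0.005 up to 2000 bases, and 67.7% and 48.8% of them were lower. A log2 ratio of -0.25 or less, as in Dnmt3a, Tet1 and Tet3, was seen in 14.6% of the genes above 9000 bases and in 15.9% of those up to 2000 bases. The part of gene length in the values of the 9 genes was not tested.

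In the wider machinery around these genes, 6 lists with 60 expressed genes, 0 genes passed a fold of 1.5 in either direction and the median log2 ratio was -0.02. A counting interval below 0 was seen in 17 of the 60, against 16.7% of expressed genes, and one above 0 in 5 of the 60, against 12.5%. In the list of other writers and their partners, 4 of 6 genes were higher and 2 were lower, with 0 intervals off 0. UHRF1, which brings DNMT1 to replicated DNA, is made by dividing cells, and its gene Uhrf1 had only 0.825 and 0.96 RPKM (log2 ratio 0.22, interval -0.41 to 0.83). The extremes of this list were Trdmt1 (0.42, interval -0.27 to 1.17), a methyltransferase of transfer RNA, and Uhrf2 (-0.10, interval -0.25 to 0.05), a relative of Uhrf1.

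In the list of other erasers and repair genes, 8 of 14 were lower, against 53.2% of expressed genes. An interval below 0 was seen in 3 (Gadd45a, Xrcc1 and Cxxc4), against 16.7% of expressed genes. In 2 (Mbd4 and Cxxc5) it lay above 0, against 12.5%. These counts are near the shares of expressed genes. Tdg, the glycosylase that removes the products of TET enzymes, had 14.9 and 15.5 RPKM, with a log2 ratio of 0.06 (-0.10 to 0.21). The extremes of the list were Gadd45a and Mbd4, a glycosylase with a methyl-CpG binding domain, whose log2 ratio was 0.45 (0.10 to 0.81) on 116 and 160 fragments. Mbd4 belongs to the list of other readers as well and was the highest there.

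Among the 10 genes listed as other readers 8 were lower, 5 of them with an interval below 0, and the median log2 ratio was -0.10. Of all expressed genes 53.2% were lower and 16.7% had such an interval. The 5 were Mbd6, Zbtb4, Zbtb38, Kdm2a and Kdm2b, and KDM2A and KDM2B bind CpG without the methyl mark. The list is thus wider than readers of the mark, and its counts do not describe such readers alone. The lowest was Zbtb38, a zinc finger protein that binds methylated CpG, at -0.42 (-0.71 to -0.13), and Mbd6 followed at -0.32 (-0.45 to -0.19). Subunits of the NuRD complex, which holds either MBD2 or MBD3, had a median log2 ratio of -0.005. Of them 7 of 12 were lower, or 4 when the CUMS values are rescaled to a median ratio of 0. The lowest was Gatad2b at -0.27 (-0.50 to -0.05), which bridges the MBD protein and the remodeler, and the highest was Hdac2 at 0.15 (0.01 to 0.29), a histone deacetylase. Of the remodelers of the complex, Chd4 (36.4 and 32.2 RPKM) had -0.18 (-0.25 to -0.11) and Chd3 (137.8 and 136.8 RPKM) had -0.01 (-0.04 to 0.02).

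Of the genes listed around the methyl donor S-adenosylmethionine 7 of 11 were lower, against 53.2% of expressed genes, and the median log2 ratio was -0.11. An interval below 0 was seen in 5 of the 11 and one above 0 in 1, against 16.7% and 12.5% of expressed genes. The list also holds Ahcyl1 (-0.07) and Ahcyl2 (-0.11), relatives of the listed enzyme gene Ahcy. Mat2a, which makes the donor, was at -0.15 (-0.23 to -0.06), while Mat2b, the regulatory subunit of that enzyme, was the highest at 0.24 (0.15 to 0.34). Mtrr, an enzyme that keeps methionine synthase active, was the lowest at -0.31 (-0.60 to -0.01). Enzymes that make 2-oxoglutarate, the cosubstrate of TET enzymes, had a median of -0.01. The lowest was Idh2, the mitochondrial isocitrate dehydrogenase, at -0.49 (-0.65 to -0.34), and the highest was its cytosolic counterpart Idh1 at 0.23 (0.06 to 0.39).

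**Figure D5:**
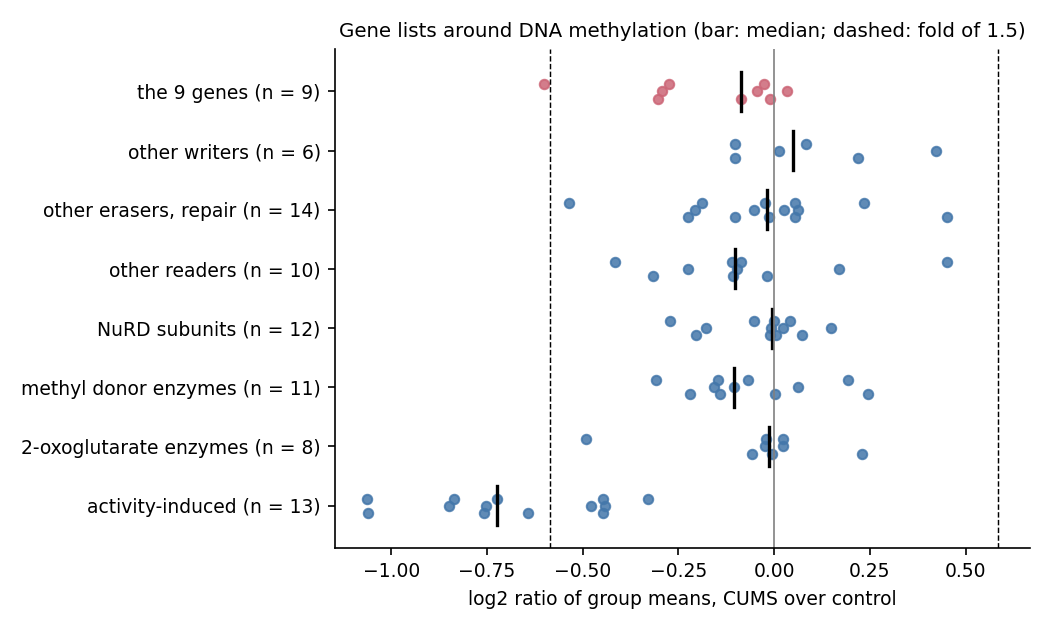
The log2 ratio of CUMS over control of each expressed gene (dots) in the 9 genes, 6 lists around DNA methylation and the activity-induced genes, with the median as a black bar and a fold of 1.5 as dashed lines. All 13 activity-induced genes lie below 0 with a median of -0.72, whereas the medians of the 6 lists lie between -0.11 and 0.05.

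Several lists of cell type and region markers differed between the groups. The tissue carried markers of excitatory neurons of the neocortex (8 of 8 present), which summed to 770 RPKM in control and 959 RPKM in CUMS, with 8 of 8 higher. Oligodendrocyte markers were lower in 7 of 7 genes (1866 and 1266 RPKM summed). Markers of other regions had lower sums as well, for septum and hypothalamus (194 and 99.5 RPKM), for the olfactory bulb (52.9 and 26.4 RPKM) and for the striatum (315 and 271 RPKM). Blood markers were higher in 7 of 7 genes (223 and 391 RPKM), of which Hbb-b2 rests on 1 and 5 fragments. The marker lists were chosen with earlier results of these data known. The genes of septum and hypothalamus are among those the study reports as changed. So are some of the olfactory bulb, oligodendrocyte, blood and GABAergic neuron genes. The direction of these lists is therefore no independent evidence. Of GABAergic neuron markers 3 of 6 were lower (632 and 548 RPKM). These were Gad1 (-0.60), Gad2 (-0.88) and Slc32a1 (-0.78), whereas Vip was higher (0.51) and the intervals of Pvalb and Sst held 0. Of endothelial markers 2 of 5 were lower (67.6 and 53.7 RPKM), Cldn5 (-0.61) and Pecam1 (-0.31), while the intervals of Flt1, Tek and Slco1a4 held 0. Of astrocyte and microglia markers 2 of 6 each were lower (475 and 478 RPKM, and 132 and 140 RPKM), against 53.2% of expressed genes. Among astrocyte markers the interval lay below 0 for Gfap (-0.41) and above 0 for Slc1a3 (0.11) and Slc1a2 (0.05). Among microglia markers only that of P2ry12 (0.54) left 0 outside, and it lay above 0. The part of these markers in the ratios of Dnmt3a, Tet1, Tet3 and Mbd1 was not tested. In bulk tissue, fewer cells of a type and less RNA per cell cannot be told apart.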

How the data were processed

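Per the methods of the study and the labels, poly(A) RNA of the mPFC was sequenced as paired reads in 2 control and 2 CUMS libraries, trimmed with SolexaQA and aligned to mm10 with TopHat 1.0.12 and Bowtie 0.11.3 (versions from the processing notes). The authors counted reads unique to a gene, converted them to RPKM and deposited the mean RPKM of each group, together with the gene length in bases. Which annotation was used, and whether counting was stranded, is not given in the sources used here. The deposited log2 ratio, direction and NOISeq probability are the comparison made by the authors and were not used, so the fold alone was read, without the probability that the study also required. A mean of 0.01 stood in for 0 (590 control and 619 CUMS values).

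The log2 ratio of the means was computed without a pseudocount. The worth of 1 fragment was read from genes shorter than 1000 bases with a product of RPKM and length under 350. Steps from 20 to 200 were tried, and 68.05 (control) and 67.55 RPKM x bases (CUMS) fitted best, if libraries of a group had equal depth. With a tolerance of 0.15, 85.7% and 85.2% of 406 and 392 low values were whole numbers of steps. The resulting fragment numbers are estimates, below the clean reads listed by the study. They gave exact Poisson intervals of levels and exact Clopper-Pearson 95% intervals of ratios, and a floor of 3 fragments for genes at 0.01. Removal of PCR duplicates is not stated, and intervals and floors cover counting error only. The step search and the intervals were tested on simulated data.

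Genes named were the 9 genes, a few fixed relatives (Uhrf1, Dnmt3b, Gadd45a, Gadd45g, Tdg and Fos), and in each of 7 lists the genes past the fold, otherwise the highest and the lowest ratio. Mbd6, Zbtb4, Kdm2a, Kdm2b, Chd3, Chd4, Mat2a, Ahcy, Ahcyl1, Ahcyl2, Bdnf, Xrcc1, Cxxc4, Cxxc5 and, among activity-induced genes, Nr4a2 were named after their values were seen. So were the cell type markers named, the length and fragment classes and the pairs. The genes and lists were chosen with earlier results of these data known. Drd1 was listed in the table as Drd1a. Some genes of the lists are not reported here and were left out of the list counts. Coordinates are RefSeq gene spans on GRCm38.p6, the build named mm10, matched by gene identifier for 9 of 9 genes, and overlaps are from GENCODE M21. Python 3.11.15, pandas 2.3.3, numpy 2.4.6, scipy 1.17.1 and matplotlib 3.10.9 were used.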

Additional observations from a re-analysis of the deposited data

How the results depend on the processing

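No paired analysis was possible because the deposited values are group means alone. For that reason no library could be left out and no test between groups could be run. Of 36 ratios of the 9 genes under rescalings and pseudocounts, 35 stayed within the main counting interval. The exception was Tet1, at -0.21 with a pseudocount of 1, which by construction shrinks the ratio of a low gene. The rescalings shift every ratio by only 0.015 or -0.008, and a pseudocount hardly moves the higher genes. Most of the 36 ratios therefore could not have left their interval, and the 35 is a weak check. The number of genes lower past the fold, 1 (Tet1), was 0 with a fold above 2 and 0 among genes of at least 5 RPKM, where Tet1 is not included. It was 1 with a lower fold, after both rescalings and without the filter on low values. NuRD subunits lower in CUMS numbered 7, and 4 once the CUMS values were rescaled so that the median ratio was 0 (a shift of 0.015 on the log2 scale), which moved 3 genes across 0. The other counts, among them the 4 genes with an interval below 0 (3 among genes of at least 5 RPKM, and 5, with Dnmt1, at 2 times the fragments), stayed within 1.5 times their main value. Precision is limited most for Tet1 and Gadd45b, which rest on the fewest fragments.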
